A study of Mus musculus with 16 samples.

Results

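Intercalated cells are the acid-base cells of the renal collecting duct, and 10 genes that mark them and carry out their transport were followed in whole mouse kidney. They are Atp6v1g3, Atp6v0d2, Atp6v1b1 and Atp6v0a4 of the proton pump, the anion exchanger genes Slc4a1, Slc4a9 and Slc26a4, the transcription factor gene Foxi1, the channel gene Aqp6 and the receptor gene Insrr. The genes were chosen by name, as the rows of the count files with exactly these symbols, and make up 10 of the 40879 symbols listed. All 10 had enough counts to be among the 14665 genes tested.

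Intercalated cells sit among the principal cells of the connecting tubule and collecting duct. Type A cells pump protons into the urine with a vacuolar proton pump (V-ATPase) and return bicarbonate to the blood through AE1, the product of Slc4a1. Type B cells secrete bicarbonate through pendrin, the product of Slc26a4, on the urinary side. FOXI1 is the forkhead factor that intercalated cells need to form, and in humans loss of ATP6V1B1, ATP6V0A4, SLC4A1 or FOXI1 causes distal renal tubular acidosis.

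RNA of whole kidneys from wild-type male C57BL/6 mice was sequenced at the 3' end of transcripts in 16 libraries. Old+PM (3 libraries) and Old+YM (3 libraries) received a herbal formula by mouth, Palmijihwang-tang for PM and Yukmijihwang-tang for YM, at 100 mg/kg/day on 5 days of each week, starting at 19 months of age and ending at 24 months. Old (5 libraries) aged naturally without a formula, and Young (5 libraries) were 3 months old. All 3 aged groups had an acclimatization of 5 months. The sources used here do not state how old the Old mice were when kidneys were taken, and in 1 place the labels name YM where the dose of PM is described. Whether every library is a separate mouse is also unstated, so p-values measure only the spread between these libraries, which may be technical.

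Totals ran from 8223008 to 10914515 counts per library, and 1 CPM (counts scaled to a common library total) is about 8 counts at the lowest total. Mitochondrial transcripts took 16.5% ± 1.53 of the counts in Old+PM (SD, n = 3), 20.6% ± 3.54 in Old+YM (n = 3), 20.3% ± 1.69 in Old (n = 5) and 21.8% ± 4.23 in Young (n = 5). A score of circadian clock genes, the mean z-score of 5 genes such as Bmal1 minus that of 9 genes such as Dbp, ran from -1.23 to -0.033 in Old+PM, from -1.59 to 0.13 in Old+YM, from -2.13 to -1.43 in Old, apart from 1.66 in Old 4, and from 0.967 to 2.83 in Young. The sources used here do not state the time of collection. Apart from Old 4, every aged library scored below every Young library. Age and clock score are thus confounded, and fits with the score as a covariate cannot tell them apart. In whole kidney, fewer cells of a type and less RNA per cell cannot be told apart.

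The 250 bases before the start of transcription in RefSeq are shown for 3 of the genes, since Atp6v1g3 and Atp6v1b1 carry subunits of the same pump and had nearly the same estimated difference between Old and Young, and Aqp6 was the member that passed the test as higher in Old. Windows of 6 of the 10 genes were kept for the search. No window of Atp6v0d2, Slc4a1, Slc4a9 or Insrr was searched, so the search does not cover all 10 genes. Sequences are those of RefSeq on GRCm38.p6, written 5' to 3' in the direction of the gene. They are counted from the RefSeq start, which differs from the GENCODE M21 start given further on for Aqp6 and Atp6v1b1. Atp6v1g3 stands for chr1:138273488-138273737 on the plus strand, Atp6v1b1 for chr6:83742767-83743016 on the plus strand and Aqp6 for chr15:99600950-99601199 on the plus strand. Capitals mark the heptamers TGTTTAC and TGTTTGT, core letters of the sites that forkhead factors bind, searched on both strands.
Atp6v1g3: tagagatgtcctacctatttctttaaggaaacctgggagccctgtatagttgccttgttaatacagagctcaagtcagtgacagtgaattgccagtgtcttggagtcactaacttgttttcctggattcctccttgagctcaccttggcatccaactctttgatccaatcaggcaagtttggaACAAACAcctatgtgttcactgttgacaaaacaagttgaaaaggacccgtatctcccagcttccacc
Atp6v1b1: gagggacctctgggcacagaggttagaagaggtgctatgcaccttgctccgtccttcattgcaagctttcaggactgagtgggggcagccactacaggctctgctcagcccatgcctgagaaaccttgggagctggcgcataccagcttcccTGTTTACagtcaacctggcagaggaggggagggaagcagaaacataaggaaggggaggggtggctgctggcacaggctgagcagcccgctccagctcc
Aqp6: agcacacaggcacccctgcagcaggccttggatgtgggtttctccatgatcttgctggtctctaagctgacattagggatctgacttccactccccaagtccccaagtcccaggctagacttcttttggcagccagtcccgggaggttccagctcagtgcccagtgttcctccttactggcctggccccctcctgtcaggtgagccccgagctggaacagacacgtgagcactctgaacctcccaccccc
Atp6v1g3 holds TGTTTGT on the minus strand, printed above as its reverse complement. The first capital as printed, which pairs with the last base of TGTTTGT, lies 67 bases upstream of the RefSeq start. Atp6v1b1 holds TGTTTAC on the plus strand with its first base 98 bases upstream of its RefSeq start. No heptamer was found in the windows of Aqp6, Atp6v0a4, Slc26a4 and Foxi1, so 2 of the 6 windows held one. Among 32851 RefSeq mouse promoters of the same length, 3.17% held TGTTTAC, 5.84% held TGTTTGT and 8.74% held either. These are matches of letters, and binding was not measured.

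The comparison of Old with Young addressed ageing of the kidney. Of the 10 genes, Aqp6 was higher in Old, Insrr was lower, and the other 8 did not pass the test, which was edgeR's quasi-likelihood test with Benjamini-Hochberg adjustment over all 14665 genes at a threshold of 0.05. Across all tested genes 13.6% passed in this comparison, 6.47% higher in Old and 7.13% lower. A count of 2 of 10 members stands near that background. At an unadjusted p under 0.05 there were 5 of the 10 members and 28.1% of all genes. The members had a median log2 difference of -0.24 (Old minus Young), against 0.02 over all tested genes, with 8 of 10 differences negative. No member separated Old from Young without overlap, which 9.19% of all tested genes did.

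**Figure D1:**
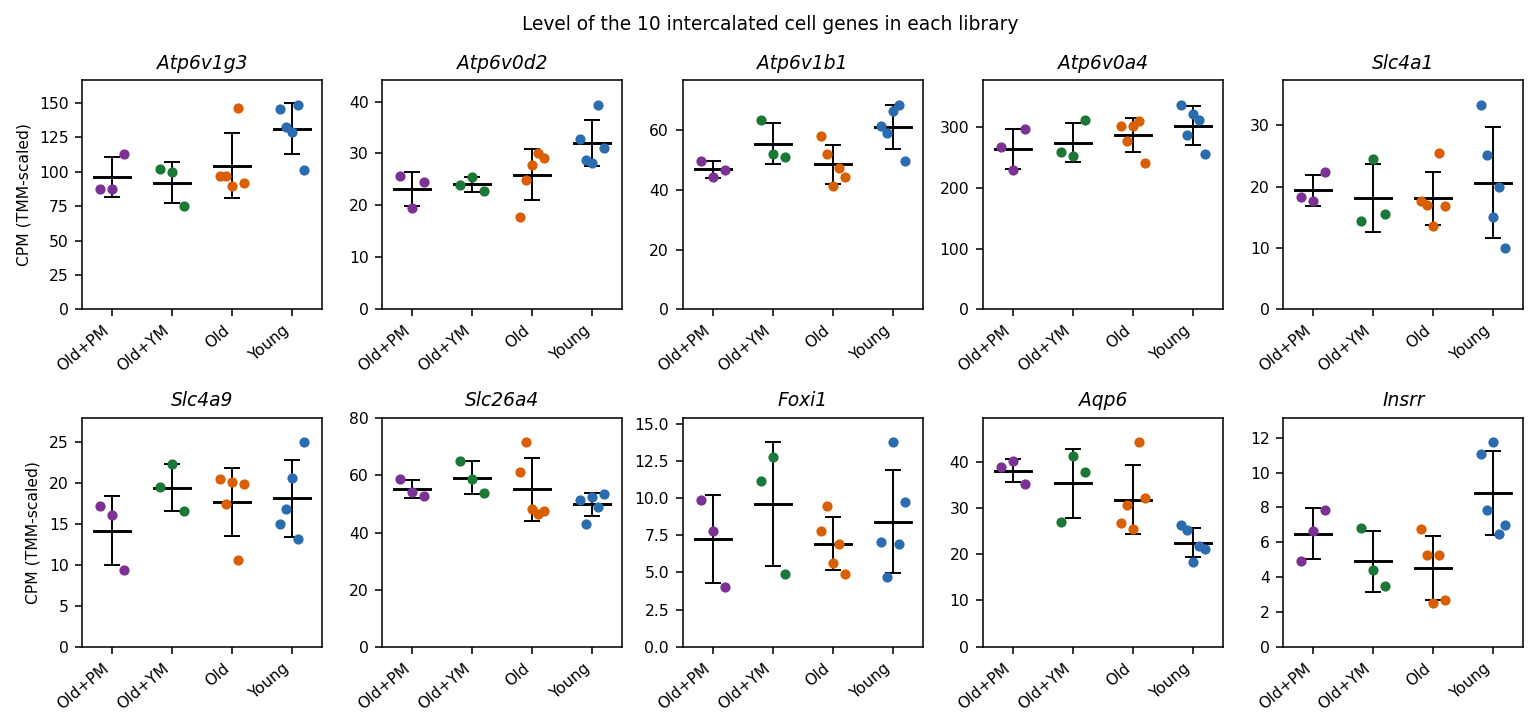
Level of each of the 10 genes in CPM on TMM-scaled library sizes, with 1 point per library, a horizontal bar at the group mean and whiskers of 1 SD (n = 3 for Old+PM and Old+YM, 5 for Old and Young). Aqp6 stands between 25.5 and 44.2 CPM in Old and between 18.3 and 26.2 CPM in Young, and Insrr between 2.50 and 6.77 CPM in Old and between 6.47 and 11.7 CPM in Young.

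Aqp6, on chromosome 15 at 99601400 to 99605477 (mm10, plus strand), encodes a channel that sits with the proton pump in vesicles of type A cells. Its level was 26.7, 30.6, 25.5, 44.2 and 32.2 CPM in the Old libraries, against 26.2, 25.2, 18.3, 21.8 and 21.2 CPM in the Young libraries. The lowest Old library lay among the Young values, and the other 4 lay above all of them, with Old 4 highest. Aqp6 averaged 31.8 ± 7.46 CPM in Old and 22.5 ± 3.20 CPM in Young (SD, n = 5 each). Its log2 difference was 0.50 with a standard error (SE) of 0.15 and an adjusted p of 0.0371 by edgeR. The call rests on few libraries: the edgeR adjusted p was 0.0862 without Young 3, 0.0761 without Young 4, 0.0731 without Old 4 and 0.0722 without Old 5, and it was below the threshold in the other 12 of 16 fits that left out a library. The call was also lost with limma-voom (adjusted p 0.0560) and with only the 2 groups in the fit (0.0531), and it was kept under the other 7 alternatives. In a fit with the clock score added, the log2 difference was 0.87, with an adjusted p of 0.0261.

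Insrr, on chromosome 3 at 87796951 to 87816101 (plus strand), encodes a receptor tyrosine kinase of the insulin receptor family that alkaline pH activates, and in the kidney it marks bicarbonate-secreting cells. Its level was 6.77, 5.26, 2.50, 5.26 and 2.70 CPM in Old, against 11.1, 7.82, 11.7, 6.47 and 6.97 CPM in Young. Old 1 was the only Old library inside the Young range. These are low counts, from 24 to 68 per Old library and from 53 to 116 per Young library. Insrr averaged 4.50 ± 1.84 CPM in Old and 8.81 ± 2.42 CPM in Young (SD, n = 5 each), a log2 difference of -0.97 with an SE of 0.28 and an adjusted p of 0.0276 by edgeR. The adjusted p was 0.0769 without Young 1, 0.0859 without Young 3, 0.0628 without Old 3 and 0.0738 without Old 5. In a fit with the clock score added, the log2 difference was -0.57 and the adjusted p 0.559, so the call was lost there.

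Insrr lies within Pear1, a gene of the opposite strand whose product is a membrane receptor of platelets and endothelium, with no exonic base shared in GENCODE M21. The strand setting of the counting is not given, so reads of the pair cannot be assigned by strand. Pear1, named here with its values already known, was 16.2 CPM in Old and 9.11 CPM in Young on average, a rise of 0.82 on the log2 scale with an adjusted p of 0.00795 by edgeR, the direction opposite to that of Insrr.

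The pump genes follow. Atp6v1b1 (chromosome 6, 83742990 to 83758855, plus strand) encodes B1, the nucleotide-binding subunit of the cytoplasmic V1 part in intercalated cells. Its level was 58.0, 52.0, 41.3, 47.5 and 44.3 CPM in Old, against 61.5, 59.1, 66.4, 68.6 and 49.8 CPM in Young. Old 1 and Old 2 lay above the lowest Young library, Young 5, and the other 3 Old libraries lay below all Young values. The log2 difference was -0.33 (SE 0.11, 95% interval -0.56 to -0.09) with an adjusted p of 0.0575 by edgeR, just above the threshold. It was under the threshold in 2 of 16 fits that left out a library, 0.0365 without Young 5 and 0.0314 without Old 1, and at most 0.164 in the other 14. Of 9 other alternatives, 2 brought it under the threshold, DESeq2 (0.0401) and the replicate block (0.0427). It was 0.465 with the clock score as a covariate, at a log2 difference of -0.27, and 0.392 on raw library totals, at -0.16.

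Atp6v1g3 (chromosome 1, 138273738 to 138289462, plus strand) encodes G3, a stalk subunit of V1. Its level was 96.8, 96.9, 89.7, 146 and 92.2 CPM in Old, against 146, 133, 129, 149 and 101 CPM in Young. Old 4 was at the level of the higher Young libraries, and the remaining 4 Old libraries lay below every Young library. The log2 difference was -0.33 (SE 0.14, 95% interval -0.63 to -0.04) with an adjusted p of 0.126 by edgeR. Without Old 4 it was -0.47 with an edgeR adjusted p of 0.00798, in a fit from which the highest Old value had been taken out. Old 4 was also the Old library with a clock score in the Young range, and with that score as a covariate the log2 difference was 0.10, with an adjusted p of 0.815. That fit cannot tell age from clock score.

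Atp6v0d2 (chromosome 4, 19876841 to 19922605, minus strand) encodes d2 of the membrane part V0, the part that conducts protons. Its level was 17.8, 25.0, 27.9, 30.0 and 29.1 CPM in Old, against 32.7, 28.7, 28.2, 39.4 and 31.2 CPM in Young. The groups overlapped between 28.2 and 30.0 CPM. Atp6v0d2 had a log2 difference of -0.30 (SE 0.14, 95% interval -0.60 to -0.01) with an adjusted p of 0.164 by edgeR. This subunit is also made by osteoclasts and macrophages. Of 10 macrophage marker genes, 8 were higher in Old, among them Adgre1 and Lyz2, and none was lower, where 6.47% of all tested genes were higher. That count of 8 was 3 without Young 1 or Young 4, 4 without Young 2, Young 3, Young 5 or any 1 Old+YM library, 5 without Old+PM 1, 3 with limma-voom or with no filter, 2 with only the 2 groups in the fit and 0 when the clock score was a covariate. Their summed level ran from 139 to 858 CPM in Old and from 131 to 159 CPM in Young, and its part in the Atp6v0d2 values was not tested.

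Atp6v0a4 (chromosome 6, 38048483 to 38124586, minus strand) encodes a4, the subunit of V0 that lines the proton path in intercalated cells. Its level was 303, 278, 303, 311 and 241 CPM in Old, against 337, 288, 322, 313 and 256 CPM in Young. The ranges overlapped over most of their length. For Atp6v0a4 the log2 difference was -0.08 (SE 0.11, 95% interval -0.30 to 0.14) with an adjusted p of 0.685 by edgeR. Atp6v0a4 shares 62 exonic bases with Tmem213 on the opposite strand and 259 with D630045J12Rik on its own strand, none of them in its last 500 bases, where 3' reads fall.

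Among the exchangers, Slc26a4 (chromosome 12, 31519827 to 31559969, minus strand) encodes pendrin of type B cells. Its level was 61.2, 71.6, 48.4, 46.6 and 47.6 CPM in Old, against 51.3, 43.0, 52.3, 49.1 and 53.5 CPM in Young. Old 1 and Old 2 lay above all Young libraries and the other 3 lay inside the Young range. Slc26a4 had a log2 difference of 0.15 (SE 0.12, 95% interval -0.10 to 0.39) with an adjusted p of 0.466 by edgeR.

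Slc4a1 (chromosome 11, 102348824 to 102366203, minus strand) encodes AE1 of type A cells, which red blood cells also make. Its level was 17.6, 17.0, 13.6, 25.4 and 16.8 CPM in Old, against 33.4, 25.1, 15.0, 20.0 and 9.99 CPM in Young. The Old values lay inside the wider Young range. The log2 difference was -0.20 (SE 0.26, 95% interval -0.74 to 0.34) with an adjusted p of 0.671 by edgeR. Of 7 erythroid marker genes, 5 were tested and none passed, with all 5 log2 differences positive and a median of 1.60. The summed level of the 7 genes ran from 149.9 to 2085 CPM in Old and from 116 to 607 CPM in Young, and their part in the Slc4a1 values was not tested. Hba-a1, a haemoglobin gene, was at 587 CPM in Old 1 and 166 CPM in Young 5, the highest of each group, where Slc4a1 was at 17.6 and 9.99 CPM.

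Slc4a9 (chromosome 18, 36528147 to 36556273, plus strand) encodes AE4 on the blood side of type B cells. Its level was 20.5, 17.4, 20.1, 10.6 and 19.9 CPM in Old, against 15.0, 16.8, 20.7, 13.2 and 25.0 CPM in Young. Old 4 was lowest of these 10 libraries, and the groups overlapped. The log2 difference was -0.03 (SE 0.21, 95% interval -0.46 to 0.40) with an adjusted p of 0.948 by edgeR. It was -0.86, with an adjusted p of 0.0816, when the clock score was a covariate. Foxi1 (chromosome 11, 34204338 to 34208089, minus strand) was at 7.77, 9.47, 5.63, 6.92 and 4.89 CPM in Old, against 7.03, 4.67, 13.8, 6.90 and 9.73 CPM in Young. Its counts, from 46 to 136 in these libraries, and its spread left a wide interval, with a log2 difference of -0.28 (SE 0.31, 95% interval -0.92 to 0.37) and an adjusted p of 0.612 by edgeR.

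**Figure D2:**
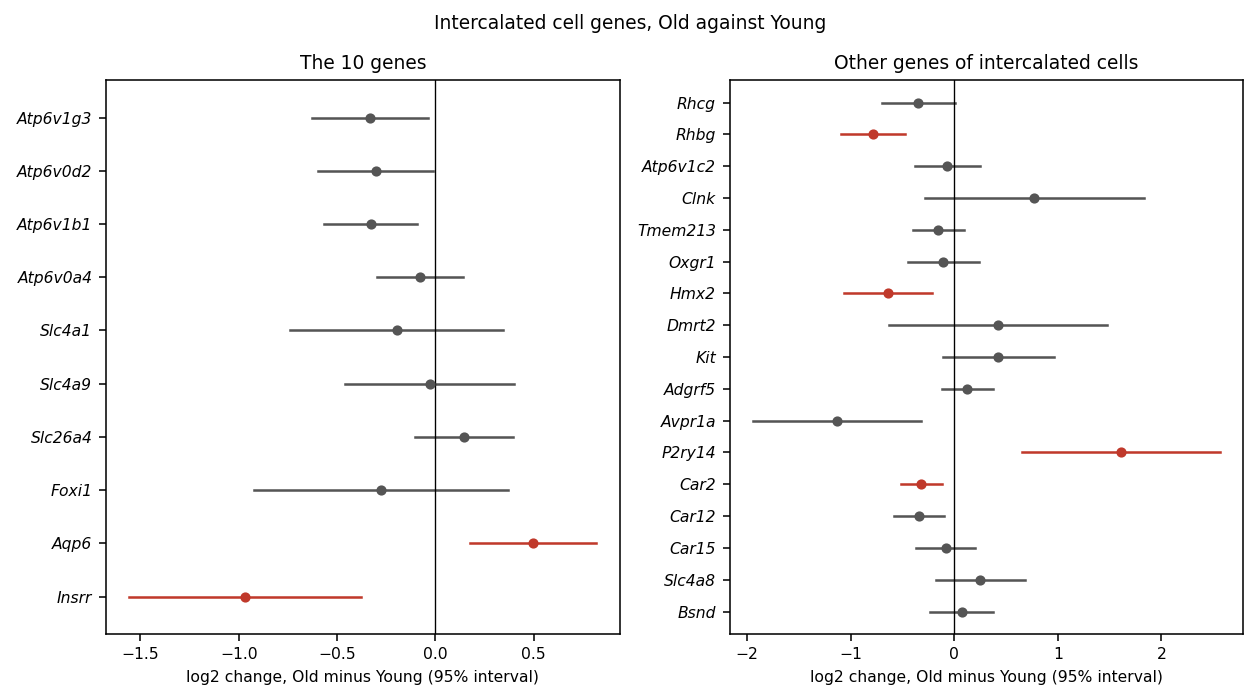
Log2 difference between Old and Young with its 95% interval for the 10 genes (left) and 17 other genes of intercalated cells (right), red where the adjusted p was under 0.05. Aqp6 at 0.50 and P2ry14 at 1.61 are the red points above 0, and Insrr, Rhbg, Hmx2 and Car2 the red points below 0.

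The scaling of the libraries bears on these values. TMM factors ran from 0.972 to 1.113 in Old and from 0.850 to 0.963 in Young. On raw library totals, the median log2 difference of all genes was 0.19 in place of 0.02, and 80.4% of the called genes were higher in Old in place of 47.6%. The members' median was -0.08 on that scale, 6 of 10 differences were negative, and Aqp6 passed alone, with a log2 difference of 0.66 and an edgeR adjusted p of 0.00733, while Insrr had -0.82 and 0.0625. With upper quartile scaling, 59.3% of the called genes were higher in Old and the members' median was -0.19. Relative to the median of all genes, the members' median was lower under each of these 3 scalings.

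The other genes of intercalated cells gave 1 higher and 3 lower in Old of 17 tested, with a median log2 difference of -0.08. Of all tested genes, 6.47% passed as higher and 7.13% as lower. P2ry14, a receptor for UDP-glucose in type A cells, was higher by 1.61 (edgeR adjusted p 0.0247) at a low level of 2.66 CPM in Old and 0.862 CPM in Young. Rhbg, an ammonia transporter of the blood side, was lower by a log2 difference of -0.78 (adjusted p 0.00174), at 37.1 ± 7.12 CPM in Old and 63.8 ± 13.2 CPM in Young (SD, n = 5 each). Hmx2, a homeobox gene, differed by -0.64 (adjusted p 0.0418). Car2, the cytosolic carbonic anhydrase that supplies protons and bicarbonate, differed by -0.32 (adjusted p 0.0334). Rhcg, the ammonia transporter of the urinary side, had -0.35 with an adjusted p of 0.185, and Atp6v1c2, the C2 subunit of the pump, had -0.07 with 0.816, so neither passed. Of 16 fits that each left out a library, Rhbg passed in 16, P2ry14 in 13, Hmx2 in 8 and Car2 in 7. Leaving out Young 1, Young 3 or Old 1 turned the count of 4 into 2, leaving out Young 2, Young 4 or Old 5 turned it into 1, and it was 0 when the clock score was a covariate.

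The widely expressed pump subunits were set beside those of intercalated cells. Where 7.13% of all tested genes were lower in Old, 7 of the 17 tested here were lower and none was higher, with a median log2 difference of -0.20. These were Atp6v1a (-0.35), Atp6v1e1 (-0.28) and Atp6v1f (-0.44) of V1, Atp6v0a2 (-0.51), Atp6v0e (-0.27) and Atp6v0e2 (-0.62) of V0, and the accessory gene Atp6ap1 (-0.51), with edgeR adjusted p from 0.00100 for Atp6v0a2 to 0.0461 for Atp6v1e1. Of 16 fits that each left out a library, Atp6v0a2 and Atp6ap1 passed in 16, Atp6v0e2 in 15, Atp6v1f in 10, Atp6v1a in 9, Atp6v0e in 5 and Atp6v1e1 in 3. The summed level of the 18 listed genes ran from 3082 to 3782 CPM in Old and from 4178 to 4584 CPM in Young. Such a separation was not particular to the pump. The proximal tubule list ran from 19428 to 32485 CPM in Old and from 40321 to 48376 CPM in Young. The other intercalated cell genes ran from 657 to 820 CPM and from 848 to 935 CPM. Podocyte sums were higher in Old, at 205 to 242 CPM against 173 to 194 CPM. Sums of the remaining lists, the members among them, overlapped. The widespread partners of the 4 members did not pass, with log2 differences of -0.20 for Atp6v1b2, 0.08 for Atp6v1g1, -0.18 for Atp6v0d1 and 0.05 for Atp6v0a1. Atp6v0c, the proton-binding ring subunit, was listed at 0.454 CPM in Old and 0.346 CPM in Young and did not enter the fit. Why so few counts were listed was not examined, so these values are not read as the level of that subunit. Leaving out Young 1, Young 2, Young 4 or Old 5 turned the count of 7 into 3, and leaving out Young 3, Old 1 or Old 2 turned it into 4. It was 3 with upper quartile scaling, 3 with only the 2 groups in the fit, 2 with the clock score as a covariate and 1 on raw library totals.

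**Figure D3:**
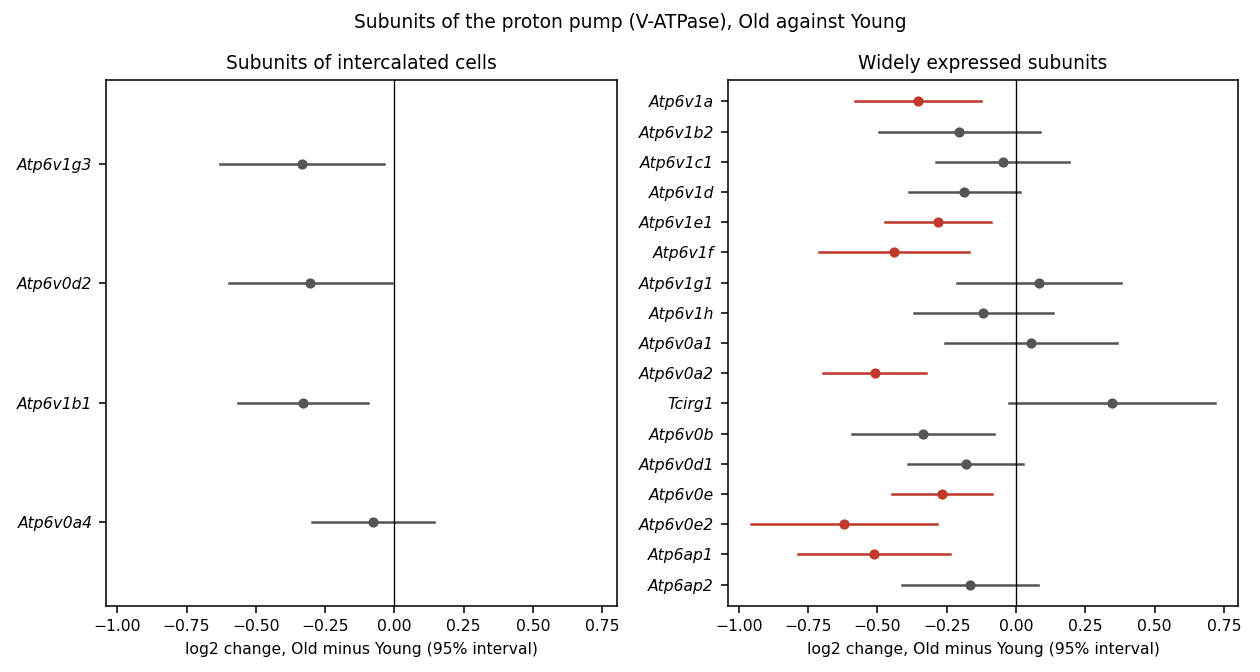
Log2 difference between Old and Young with its 95% interval for the 4 pump subunits of intercalated cells (left) and 17 widely expressed subunits and accessory genes (right), red where the adjusted p was under 0.05. The 4 members lie between -0.33 and -0.08 with no red point, and the 7 red points on the right all lie below 0.

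Outside the collecting duct, Slc4a4, the bicarbonate cotransporter of the proximal tubule, had a log2 difference of -0.16 with an edgeR adjusted p of 0.333, at 1551 CPM in Old and 1733 CPM in Young. The neighbouring principal cells were read from 12 genes, of which 11 were tested and 2 passed, both lower in Old, Hsd11b2 (-0.39) and Kcne1 (-0.82). Of all tested genes, 7.13% passed as lower. Aqp2, the vasopressin-regulated water channel, had -0.46 with an adjusted p of 0.153. The median of the principal cell list was -0.43, beside -0.24 for the 10 intercalated cell genes, and a difference between these lists was not tested. The count of 2 was 4 without Young 5 or Old 4, 4 with a replicate block, 1 on raw library totals and 0 when the clock score was a covariate. In that last fit the log2 differences were -0.48 for Hsd11b2 (adjusted p 0.0900) and -0.57 for Kcne1 (0.304).

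The comparison of Old+PM with Old asked what Palmijihwang-tang did in aged kidneys. None of the 10 genes passed, with edgeR adjusted p from 0.843 to 0.997, and none had an unadjusted p under 0.05 or passed with DESeq2 or limma-voom. Over all genes 0% passed, also with those tools, 6.16% had an unadjusted p under 0.05, and 4.02% did not overlap between the groups, none of them a member. The estimates ran from -0.32 to 0.52 on the log2 scale, with a members' median of -0.02.

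Insrr was at 4.94, 6.63 and 7.87 CPM in Old+PM, against the Old range of 2.50 to 6.77 CPM. The highest of these lay above all Old libraries, and the log2 difference was 0.52 (95% interval -0.15 to 1.19, edgeR adjusted p 0.843). Aqp6 was at 38.8, 40.1 and 35.3 CPM in Old+PM, inside the Old range of 25.5 to 44.2 CPM, with a log2 difference of 0.26 (95% interval -0.11 to 0.62). Slc4a9 was at 17.2, 16.1 and 9.31 CPM in Old+PM, against 10.6 to 20.5 CPM in Old. The last Old+PM value was the lowest of all 16 libraries, and the log2 difference was -0.32 (95% interval -0.82 to 0.19).

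The pump genes in Old+PM lay within or close to the Old ranges. Atp6v1g3 was at 87.8, 87.3 and 113 CPM, with a log2 difference of -0.12 (95% interval -0.46 to 0.22). Atp6v0d2 was at 25.7, 19.6 and 24.4 CPM, with -0.16 (-0.50 to 0.18). Atp6v1b1, the B1 subunit, was at 49.7, 44.2 and 46.9 CPM in the narrowest spread of the 4 groups, with -0.05 (-0.32 to 0.22). Atp6v0a4 was at 268, 230 and 297 CPM, with -0.12 (-0.37 to 0.14).

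Of the remaining genes, Slc4a1 was at 18.3, 17.7 and 22.4 CPM in Old+PM, with a log2 difference of 0.10 (95% interval -0.52 to 0.72). Slc26a4 was at 58.9, 54.2 and 52.7 CPM, with 0.0043 (-0.28 to 0.29), the narrowest interval of the exchanger genes in this comparison. Foxi1 was at 9.88, 7.78 and 4.04 CPM, with 0.06 (-0.68 to 0.81). For Foxi1 the interval holds both a marked fall and a marked rise.

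The comparison of Old+YM with Old asked the same of Yukmijihwang-tang. None of the 10 genes passed, with edgeR adjusted p from 0.652 to 0.999, and none had an unadjusted p under 0.05 or passed with DESeq2 or limma-voom. Over all genes 0.0205% passed, which is 3 of 14665, while 9.48% had an unadjusted p under 0.05. The groups did not overlap for 9.1% of all genes and for no member. This comparison and that of Old+PM share the 5 Old libraries. The estimates ran from -0.18 for Atp6v1g3 to 0.47 for Foxi1 on the log2 scale.

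Foxi1 was at 11.2, 12.8 and 4.91 CPM in Old+YM, against 4.89 to 9.47 CPM in Old. The first pair lay above all Old libraries and the last near the lowest, and the 95% interval of the log2 difference ran from -0.27 to 1.20. Atp6v1b1 was at 63.4, 51.9 and 51.2 CPM in Old+YM, against 41.3 to 58.0 CPM in Old, with a log2 difference of 0.19 (95% interval -0.08 to 0.46, edgeR adjusted p 0.652). Atp6v1g3, the G3 subunit, was at 102, 100.1 and 74.9 CPM in Old+YM, the last being the lowest of all 16 libraries, with -0.18 (-0.52 to 0.16). Aqp6 was at 27.0, 41.2 and 37.8 CPM in Old+YM, spread over most of the Old range, with 0.15 (-0.21 to 0.52). Insrr was at 6.83, 4.38 and 3.48 CPM in Old+YM, with 0.12 (-0.57 to 0.81).

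The other 5 genes differed little on average between Old+YM and Old. Atp6v0d2 was at 23.9, 25.5 and 22.7 CPM in Old+YM, with a log2 difference of -0.11 (95% interval -0.45 to 0.23). Atp6v0a4 was at 260, 253 and 312 CPM, with -0.06 (-0.32 to 0.19). Among the exchangers, Slc26a4 was at 65.2, 58.6 and 53.9 CPM, with 0.10 (-0.18 to 0.39). Slc4a1 was at 14.4, 24.4 and 15.5 CPM, with -0.00096 (-0.63 to 0.62). Slc4a9 was at 19.5, 22.3 and 16.6 CPM, with 0.13 (-0.36 to 0.63). Each of these intervals includes 0 and extends to both sides of it.

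**Figure D4:**
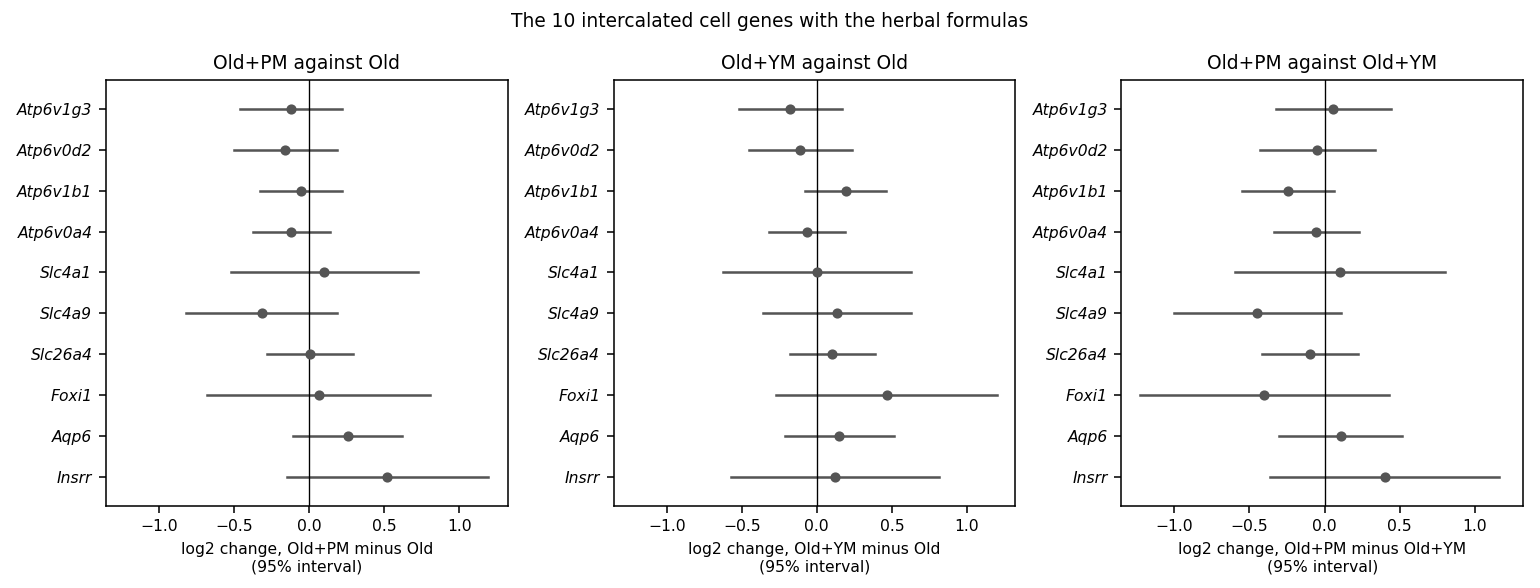
Log2 difference with its 95% interval for the 10 genes in Old+PM against Old (left), Old+YM against Old (middle) and Old+PM against Old+YM (right). All 30 intervals include 0, and the widest belong to Foxi1 and Insrr.

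Old+PM was also set against Old+YM, the formulas with each other. None of the 10 genes passed, with edgeR adjusted p from 0.479 to 0.930, and 0% of all genes did, while 12.8% of all genes and no member had an unadjusted p under 0.05. DESeq2 called 58 genes and limma-voom 2, none of them a member. Atp6v1b1 separated the groups without overlap, at 44.2 to 49.7 CPM in Old+PM and 51.2 to 63.4 CPM in Old+YM. With 3 libraries in each group, 23.8% of all genes did so, and the log2 difference of Atp6v1b1 was -0.24 (95% interval -0.55 to 0.06) with an adjusted p of 0.483 by edgeR. Slc4a9 had the lowest estimate, -0.45 (95% interval -1.01 to 0.11), at 14.2 ± 4.25 CPM in Old+PM and 19.4 ± 2.85 CPM in Old+YM (SD, n = 3 each). Insrr had 0.40 (-0.36 to 1.16) and Foxi1 -0.40 (-1.23 to 0.43), so both intervals include changes in either direction.

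Across the 4 groups, Aqp6 averaged 38.0 ± 2.47 CPM in Old+PM (SD, n = 3), 35.4 ± 7.43 CPM in Old+YM (n = 3), 31.8 ± 7.46 CPM in Old (n = 5) and 22.5 ± 3.20 CPM in Young (n = 5). The difference between Old and Young passed the test, and those among the 3 aged groups did not. Insrr averaged 6.48 ± 1.47 CPM in Old+PM (n = 3), 4.90 ± 1.74 CPM in Old+YM (n = 3), 4.50 ± 1.84 CPM in Old (n = 5) and 8.81 ± 2.42 CPM in Young (n = 5). Here too only the difference between Old and Young passed among the 4 comparisons made. For Atp6v1g3 the means were 96.0 CPM in Old+PM, 92.2 CPM in Old+YM, 104 CPM in Old and 131 CPM in Young, and for Atp6v1b1 46.9, 55.5, 48.6 and 61.1 CPM in the same groups.

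The members did not vary as a block within groups. After each group's mean was taken out, Pearson's r of a gene with the mean of the other 9 over the 16 libraries was 0.53 for Atp6v1g3, 0.52 for Insrr and 0.51 for Atp6v1b1. It was -0.02 for Aqp6, -0.19 for Atp6v0d2 and -0.55 for Slc4a9, with the remaining 4 between 0.13 and 0.39. These values share libraries and depth and are given as a description. Young 5, for example, held the lowest Slc4a1 and the highest Slc4a9 of the Young libraries.

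The genes most like the members were those whose deviations from their group means followed the members' mean deviation most closely over the 16 libraries, among 10293 genes with a mean of at least 5 CPM. They were Reep5 (Pearson's r 0.90), Spink8 (0.87), Spats2l (0.86), Edf1 (0.84), Ccdc186 (0.84), Erc2 (0.83), Coa3 (0.83) and Gadd45gip1 (0.82). None of these is in a list of intercalated cell genes used here. With a minimum of 1 CPM, the first 7 of them remained among the closest 8. The median r was 0.47 over 17 widely expressed pump genes and 0.17 over 13 other intercalated cell genes, against 0.04 over all genes ranked, as a description without a test. Some lists of other cell types also stood apart from 0.04. The median r was 0.34 over 6 endothelial and 0.33 over 10 proximal tubule genes, and -0.30 over 8 macrophage and -0.37 over 4 erythroid genes. Nearer to 0.04 were 5 podocyte (0.03), 7 thick ascending limb (0.11), 6 distal convoluted tubule (0.12) and 10 principal cell genes (0.14). Of the clock score's genes, 2 of those added gave 0.41 and 8 of those subtracted gave -0.27.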

How the data were processed

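Kidney RNA was made into libraries with the QuantSeq 3' kit, per the labels' protocols. The authors deposited raw counts per gene symbol, 1 file per library; Bowtie2, bedtools and mm10 are named in the submitters' processing notes. The sources used here give no versions, annotation or strand setting. Coordinates come from GENCODE M21 (mm10), where 29035 of 40879 symbols were found.

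Counts were tested in R 4.3.3 with edgeR 4.0.16: filterByExpr (minimum count 10, smallest group 3), TMM scaling and 1 robust quasi-likelihood fit of all 16 libraries, with Benjamini-Hochberg adjustment over 14665 genes and a threshold of 0.05. Log2 differences carry the SE of the fit and a 95% interval from it. CPM use TMM-scaled library sizes. The procedure was tested on simulated data. Alternatives used DESeq2 1.42.0, limma 3.58.1, other scalings and filters, a clock covariate and left-out libraries.

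The members, gene lists and tests were chosen with earlier results of these data known. The text names all 10 members, list genes that passed with up to 4 others, up to 4 genes of each other cell type, and the 8 genes most like the members. Some genes that this rule would name are left out of the text.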

Additional observations from a re-analysis of the deposited data

Results flagged for a closer look

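Atp6v1g3 in Old 4 stood apart from its group, at 146 CPM, where the other 4 Old libraries lay between 89.7 and 96.9 CPM. The gap to the nearest library was 0.873 of the range of the group. The 10 genes gave 20 groups of 5 libraries to look at, and chance marks about 1 in 20 such groups. Old 4 was also the Old library with a clock score in the Young range, at 1.66, and its part in the Atp6v1g3 value was not tested. Atp6v1g3 was lower in Old, by a log2 difference of -0.47 with an edgeR adjusted p of 0.00798, when Old 4 was left out. Leaving out the highest value lowers the Old mean and narrows its spread, so this fit is no independent support. It also called 1262 genes higher and 1393 lower of 14601, the most of the fits that left out a library. With all 16 libraries these were 949 and 1046 of 14665.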

How the results depend on the processing

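No member passed in a comparison with a formula under any alternative run. In Old against Young, 2 members passed, against 1 with limma-voom, only the 2 groups compared, the clock covariate or raw library totals, and 0 to 3 with a library left out. The 0 came without Young 3 and without Old 5. All called genes in that comparison numbered 519 with the clock covariate and 1208 to 2655 with a library left out, the fewest without Old 5, followed by 1236 without Young 4. The most, 2655, came without Old 4. Deviations of same-numbered libraries gave 20 correlations from -0.54 to 0.33 (median -0.03), with 4 above 0.1, beside a median of -0.01 for differently numbered pairs. These values cannot tell whether same-numbered libraries share a batch, and no batch is labelled. With the replicate block, Atp6v1b1 also passed in Old against Young (adjusted p 0.0427, edgeR). In Old+PM against Old+YM, where 0 genes passed, DESeq2 called 58, the clock covariate 3, limma-voom 2, no filter 8, only the 2 groups 13 and the replicate block 1, and 0 to 32 with a library left out, 32 without Young 5. In Old+YM against Old, where 3 passed, these counts were 49, 43, 5, 6, 20 and 6, and 0 to 39, 39 without Young 5. The cause was not tested. Member log2 differences that changed sign had not passed in the edgeR fit of all 16 libraries with group alone. Of these, Atp6v1g3 did pass in Old against Young without Old 4 (adjusted p 0.00798, edgeR). In Old against Young, the clock covariate gave 0.21 for Atp6v0a4, 0.10 for Atp6v1g3, -0.10 for Slc26a4 and 0.41 for Slc4a1. Raw library totals gave 0.087 for Atp6v0a4 and 0.15 for Slc4a9, and upper quartile scaling 0.022 for Slc4a9. Left-out libraries gave -0.34 to 0.059 for Slc4a1 and -0.12 to 0.14 for Slc4a9. In Old+PM against Old, the replicate block gave -0.048 for Foxi1 and -0.044 for Slc26a4. Left-out libraries gave -0.25 to 0.050 for Atp6v1g3, -0.098 to 0.020 for Atp6v1b1, -0.0042 to 0.28 for Slc4a1, -0.045 to 0.13 for Slc26a4 and -0.23 to 0.35 for Foxi1. In Old+YM against Old, the replicate block gave 0.013 for Atp6v0d2 and -0.046 for Insrr. For Slc4a1, DESeq2 gave 0.0087, the clock covariate 0.019, no filter 0.0037, only the 2 groups 0.0082, raw library totals 0.036, upper quartile scaling 0.0056 and leaving out mitochondrial counts 0.016. Left-out libraries gave -0.24 to 0.0018 for Atp6v1g3, -0.27 to 0.18 for Slc4a1 and -0.19 to 0.33 for Insrr. In Old+PM against Old+YM, they gave -0.084 to 0.13 for Atp6v1g3, -0.13 to 0.058 for Atp6v0d2, -0.15 to 0.045 for Atp6v0a4, -0.046 to 0.37 for Slc4a1 and -0.065 to 0.23 for Aqp6.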
